A study of Rattus norvegicus with 119 samples.

Results

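The 5 transcripts described here encode proteins of the vascular endothelium. Of these, Kdr was also read in cells with under 10 reads of each of the other 4. They were the rows for Cdh5 (ENSRNOG00000013324), Kdr (ENSRNOG00000046829), Flt1 (ENSRNOG00000000940), Tie1 (ENSRNOG00000020173) and Emcn (ENSRNOG00000022910), taken from 32662 gene rows in each of 4 count tables. They were chosen by their levels in these libraries, the counts of the 5 genes by tissue and by cell, so all values of the members are descriptions and no test was made on them. All animals were newborn female Wistar rats (P0, postnatal day 0), with no transgene or treatment. The ventral mesenchymal pad (VMP) is mesenchyme of the female urethra that can support prostate budding, and SU is the neighbouring urethra with smooth muscle, stroma around the urethra and urethral epithelium. Each tissue was measured by Tag-seq of intact tissue pooled from many pups, by RNA-seq of cells freed from pooled tissue with collagenase, and by scRNA-seq of 49 VMP and 66 SU cells captured on a Fluidigm C1 chip. The strainer step was aimed at removing epithelium, so the dissociated samples hold the cells that collagenase freed and the strainer passed. With 1 bulk library per tissue and assay, and no separate animals or pools named for the cells of a tissue, there is no replicate error between the tissues.

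Kdr encodes VEGFR2, the main signalling receptor for vascular endothelial growth factor (VEGF), and Flt1 encodes VEGFR1, which binds VEGF tightly and limits the amount that reaches VEGFR2. Cdh5 encodes VE-cadherin, the adhesion protein of endothelial junctions, Tie1 encodes a receptor kinase that works with the angiopoietin receptor Tek, and Emcn encodes endomucin, a sialomucin of venous and capillary endothelium. In most organs these genes are read together in endothelial cells, under transcription factors of the ETS family, while Kdr is also known from mesodermal progenitors and some stromal cells.

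By the Rnor_6.0 positions given with the transcripts, all protein coding, the genes lie on 5 chromosomes, with Cdh5 at chr19:1023683-1074365, Kdr at chr14:34727623-34787183, Flt1 at chr12:9034308-9205905, Tie1 at chr5:137294544-137321121 and Emcn at chr2:242634399-242714182. The 250 bases before the start of 4 of the 5 genes are shown because the members are commonly read together, so that what these stretches share can be seen. They are from RefSeq on build GRCr8, written 5′ to 3′ on the strand of the gene, at chr14:32571813-32572062 (plus strand) for Kdr, chr12:12333180-12333429 (plus strand) for Flt1, chr5:137304982-137305231 (minus strand) for Tie1 and chr2:228564289-228564538 (plus strand) for Emcn. Capitals mark the 4-letter ETS core, GGAA, or TTCC where it lies on the other strand.
Kdr: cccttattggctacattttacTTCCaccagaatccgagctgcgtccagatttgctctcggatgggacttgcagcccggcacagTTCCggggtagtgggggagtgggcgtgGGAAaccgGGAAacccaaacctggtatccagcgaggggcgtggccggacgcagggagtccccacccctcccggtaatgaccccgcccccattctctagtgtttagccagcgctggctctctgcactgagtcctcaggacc
Flt1: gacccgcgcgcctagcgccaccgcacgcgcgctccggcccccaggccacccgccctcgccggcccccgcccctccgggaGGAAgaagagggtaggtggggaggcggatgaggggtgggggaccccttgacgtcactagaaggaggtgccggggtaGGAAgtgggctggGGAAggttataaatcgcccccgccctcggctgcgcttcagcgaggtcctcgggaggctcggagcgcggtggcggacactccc
Tie1: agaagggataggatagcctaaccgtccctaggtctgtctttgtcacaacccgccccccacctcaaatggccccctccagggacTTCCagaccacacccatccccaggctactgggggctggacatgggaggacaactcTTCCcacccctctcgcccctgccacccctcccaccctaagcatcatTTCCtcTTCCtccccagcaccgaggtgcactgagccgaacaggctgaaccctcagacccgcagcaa
Emcn: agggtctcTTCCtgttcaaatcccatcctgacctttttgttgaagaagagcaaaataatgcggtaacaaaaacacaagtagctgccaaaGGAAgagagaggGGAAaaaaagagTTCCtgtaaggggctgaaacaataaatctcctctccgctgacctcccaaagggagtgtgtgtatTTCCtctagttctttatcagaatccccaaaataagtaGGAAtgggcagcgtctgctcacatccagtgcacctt

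The ETS core was found 4 times in the Kdr stretch, 3 times in Flt1, 4 times in Tie1 and 6 times in Emcn. In 33469 rat promoters of the same length, 93.2% held the core at least 1 time, the median was 3, and 19.0%, like Emcn, held it 5 or more times. The GC box, GGGCGG or CCGCCC, was found 3 times in Flt1, 1 time each in Kdr and Tie1 and not in Emcn, against 30.5% of promoters that held it. TATAAA, or TTTATA on the other strand, was found in Flt1 alone of the 4, against 12.9% of promoters. Kdr and Tie1 each had 61.6% G and C, Flt1 73.2% and Emcn 44.4%, with a median of 51.2% over all promoters. A match is a run of letters and not a site that was measured.

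Tag-seq of intact tissue, with 7870450 counts in VMP and 8215177 in SU, gave higher values in VMP for all 5 members. Kdr had 651 counts in VMP and 158 in SU, or 82.7 and 19.2 CPM, the count scaled by the library total. The VMP over SU log2 ratio was 1.99 (95% interval of counting 1.74 to 2.25), or 3.97-fold. Cdh5 had 2390 and 770 counts, a log2 ratio of 1.58 (1.47 to 1.70). Emcn had 731 and 244 counts, a log2 ratio of 1.53 (1.32 to 1.75). Tie1 had 1584 and 655 counts, a log2 ratio of 1.22 (1.09 to 1.36). Flt1 was low in both tissues, with 41 and 20 counts and a log2 ratio of 0.97 (0.18 to 1.84). All intervals cover counting error between 2 libraries and not the spread between animals, and without molecular identifiers reads are not independent molecules. In bulk tissue, fewer endothelial cells and less RNA per cell cannot be told apart.

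Against an absolute log2 ratio of at least 1.5, the fold limit of the study, 3 of the 5 members (Cdh5, Kdr and Emcn) passed in Tag-seq, all toward VMP. Among the 12191 transcripts above 1 CPM in either library or in both, 21.2% passed in either direction and 7.36% toward VMP. The members had a median log2 ratio of 1.53, and all transcripts one of 0.01. Since the members were chosen with these values known, nothing is read from their share.

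In RNA-seq of dissociated cells, with 4397699 gene counts in VMP and 7007767 in SU, the 5 members came apart. Kdr had 1389 counts in VMP and 262 in SU, or 315.8 and 37.4 CPM, a log2 ratio of 2.87 (2.68 to 3.07) and 7.30-fold. Flt1 had 50 and 244 counts, a log2 ratio of -1.81 (-2.29 to -1.38), so its higher library was SU here and VMP in intact tissue. The other 3 were modestly higher in VMP. Emcn had 911 and 694 counts, a log2 ratio of 0.86 (0.71 to 1.00). Cdh5 had 844 and 801 counts, a log2 ratio of 0.54 (0.40 to 0.68). Tie1 had 633 and 698 counts, a log2 ratio of 0.32 (0.17 to 0.48). Past the fold limit were 2 of the 5 members, Kdr toward VMP and Flt1 toward SU, where 31.2% of 17527 transcripts passed in either direction, 16.2% toward VMP and 15% toward SU.

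A ratio of Kdr to the other members within a library does not depend on library size, and gene length leaves it unchanged between tissues. In Tag-seq there were 0.137 Kdr counts for each count of the other 4 genes summed in VMP and 0.0935 in SU, so VMP was 1.47 times higher. In RNA-seq the same measure was 0.570 in VMP and 0.108 in SU, 5.30 times higher. Against each other member alone the VMP value was also the higher in both assays, by 1.33 times for Cdh5, 1.38 for Emcn, 1.70 for Tie1 and 2.01 for Flt1 in Tag-seq. In RNA-seq these were 5.03, 4.04, 5.85 and 25.9 times. By these values the Kdr difference toward VMP was larger than that of each other member in both assays. In Tag-seq the counting interval of the Kdr log2 ratio overlapped those of Emcn and Flt1, and in RNA-seq it overlapped none.

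Summed over all single cells, Kdr again was higher in VMP, while Cdh5, Flt1, Tie1 and Emcn were higher in SU. Kdr had 8046 reads in 49 VMP cells and 2339 in 66 SU cells, a log2 ratio of 2.35 (2.28 to 2.42). Emcn had 1486 and 11359 reads, a log2 ratio of -2.37 (-2.44 to -2.29). Cdh5 had 1207 and 7627 reads, a log2 ratio of -2.09. Tie1 and Flt1 had log2 ratios of -2.29 and -1.53. Of 14450 transcripts in these sums, 38.5% passed the fold limit in either direction, 17.8% toward VMP and 20.7% toward SU. The sums rest on few cells. Of the VMP reads, 1 cell gave 92.3% for Tie1, 54.2% for Cdh5, 51.0% for Emcn and 45.9% for Flt1, and in SU the highest cell gave 48.99%, 27.8%, 25.4% and 43.8% of the reads of the same genes. For Kdr the highest cell gave 34.7% of the VMP reads and 32.9% of the SU reads. Kdr was the only member higher in VMP in all 3 assays.

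**Figure D1:**
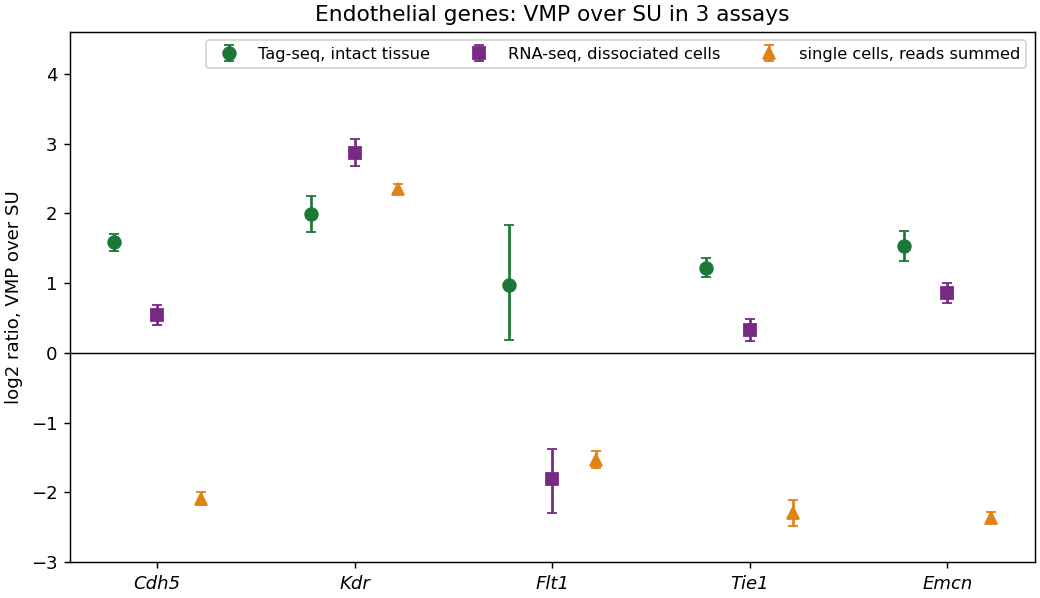
The log2 ratio of VMP over SU (vertical axis) for each of the 5 members in Tag-seq of intact tissue (circles), RNA-seq of dissociated cells (squares) and reads summed over all single cells (triangles), with 95% counting intervals as bars. Only Kdr lies above 0 in all 3 assays, at 1.99, 2.87 and 2.35, while the other 4 members lie below 0 in the summed single cells.

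The single cells were then separated by the other 4 members. A cell with at least 10 reads of Cdh5, Flt1, Tie1 or Emcn is called a cell with endothelial reads, which holds for 11 of 49 VMP and 26 of 66 SU cells. The remaining 38 VMP and 40 SU cells had under 10 reads of each. The limit fell among continuous values. In VMP the cells just inside it had 10 (Emcn), 15 and 16 (Cdh5) reads of their highest member, and those just outside had 9, 9 (Flt1) and 7 (Cdh5). In SU the values were 10 (Cdh5), 10 (Tie1) and 12 (Flt1) inside, and 8, 7 and 7 (Tie1) outside. Kdr in the 3 VMP cells just inside was 146, 2 and 2795 reads, so the cell with the most Kdr of all was placed by 16 Cdh5 reads. Median depth was 670206 and 549747 counts in VMP cells with and without endothelial reads, and 618912 and 636694 in SU cells. No pair of cells held identical values.

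In the cells without endothelial reads, Kdr was higher in VMP, and nearly every read of it in SU came from a few cells. All 38 VMP cells had at least 1 Kdr read, with a lowest value of 1, a median of 16.5 and a highest of 1414 reads. Of the 40 SU cells, 26 had 0 Kdr reads, 9 had 1 to 9, and 5 had 34, 43, 56, 95 and 134. The groups overlapped, since 14 VMP cells had 1 to 9 reads and the 5 SU cells lay above the VMP median. Summed, the VMP cells had 3957 Kdr reads in 22376228 counts and the SU cells 376 in 27327095, or 177 and 13.8 CPM. This was a log2 ratio of 3.68 (3.53 to 3.84), or 12.8-fold. Of 13920 transcripts in these sums, 43% passed the fold limit, 20.2% toward VMP and 22.8% toward SU. Without VMP cell 66, which gave 35.7% of the VMP reads, the log2 ratio was 3.09, and with the highest cell of each tissue left out it was 3.64.

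At least 10 Kdr reads were found in 24 of these 38 VMP cells (63.2%, exact Clopper-Pearson 95% interval 46.0% to 78.2%) and in 5 of 40 SU cells (12.5%, 4.19% to 26.8%). These intervals treat the cells of a tissue as independent draws and leave out any spread between animals or pools. They are not a test of VMP against SU. When every cell was reduced at random to the 199849 counts of the least deep cell and classed again, the shares were 18 of 41 (43.9%) and 5 of 51 (9.80%). The lowest reads are hard to read as expression. Other members also had 1 to 9 reads in cells that are without them by the rule, with Emcn at 1 to 7 reads in 28 of the 40 SU cells and Cdh5 at 1 to 7 reads in 20 of the 38 VMP cells. Kdr itself had 0 reads in 26 SU cells and in no VMP cell of this class.

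The Kdr level among VMP cells without endothelial reads ran from 1.07 to 2199 CPM. Above 100 reads were cell 66 with 1414 reads, cell 37 with 546, cell 60 with 530, cell 6 with 416, cell 77 with 190 and cell 81 with 159. These 6 cells had at most 5 reads of Cdh5, 2 of Flt1, 1 of Tie1 and 2 of Emcn, and cell 60 had 0 of all 4. Their Kdr was 241 to 2199 CPM, against 28.3 CPM for the median of all 38. Their summed level of 7 fibroblast markers was 5104 to 13255 CPM, within the range of 4434 to 26364 CPM of all 38. One of them, cell 77, had the highest sum of 4 matched pericyte markers of any VMP cell, 3757 CPM, and its part in the Kdr level was not tested.

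**Figure D2:**
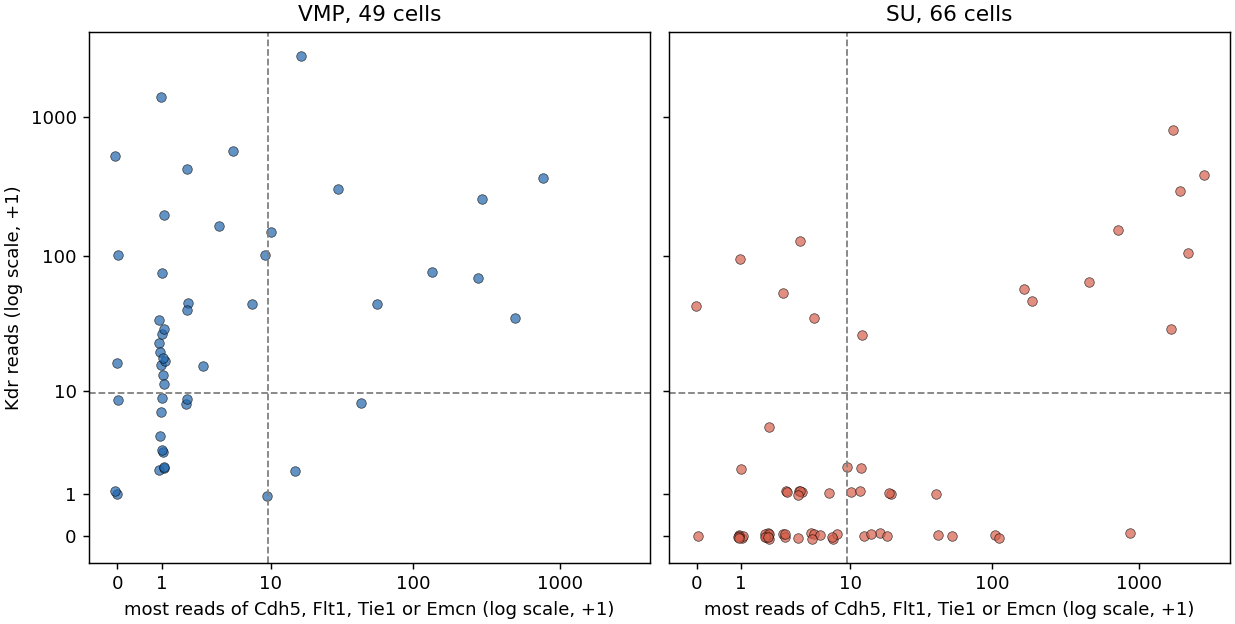
Kdr reads (vertical axis) against the most reads of Cdh5, Flt1, Tie1 or Emcn (horizontal axis) in each cell, on log scales of reads + 1 with a small random offset so that equal values can be seen, for 49 VMP cells and 66 SU cells. Dashed lines mark the limit of 10 reads on each axis, and the upper left field holds 24 VMP and 5 SU cells while 26 SU cells without endothelial reads lie at 0 Kdr reads.

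In SU, Kdr was mostly held by cells that had the other members too. It reached 10 reads in 4 of 4 SU cells with all 4 other members, 4 of 4 with 3 of them, 1 of 3 with 2, 1 of 15 with 1, and 5 of 40 with none. In VMP the same counts were 1 of 1, 0 cells with 3, 2 of 2, 6 of 8 and 24 of 38. The cells with endothelial reads held 83.9% of all Kdr reads in SU and 50.8% in VMP. In VMP, 68.4% of the Kdr reads in that class came from cell 78 alone.

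The only VMP cell with all 5 members was cell 13, with 654 reads of Cdh5, 357 of Kdr, 281 of Flt1, 239 of Tie1 and 758 of Emcn. VMP cell 29 had 302 reads of Flt1, 131 of Emcn and 252 of Kdr, with 5 of Cdh5. VMP cell 65 had 520 reads of Emcn, 49 of Flt1 and 36 of Kdr. The remaining 8 VMP cells with endothelial reads passed the limit by 1 gene, 6 by Cdh5 (15 to 267 reads) and 2 by Emcn (10 and 55 reads), with Kdr from 2 to 2795 reads.

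In SU, 4 cells had all 5 members. Cell 43 had the most Kdr, 770 reads, with 1280 of Cdh5, 289 of Flt1, 247 of Tie1 and 1731 of Emcn. Cell 66 had 400 reads of Kdr, 194 of Cdh5, 1238 of Flt1, 471 of Tie1 and 2880 of Emcn. Cells 63 and 24 had 299 and 108 Kdr reads beside 1959 and 2118 of Cdh5. The 4 SU cells with 3 other members had 28 to 156 Kdr reads. By contrast, SU cell 76 had 900 reads of Emcn with 0 of Kdr, and SU cell 78 had 110 of Cdh5 with 0 of Kdr, so high reads of 1 member did not come with Kdr in every cell.

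Over all cells of a tissue, pairs of members gave the same picture, given here without a test of the tissues against each other. Kdr and Cdh5 both reached 10 reads in 10 SU cells, against 4 with Cdh5 alone and 5 with Kdr alone of this pair, and the Spearman correlation of their levels was 0.41 over 66 cells. In VMP they met in 5 cells, against 2 with Cdh5 alone and 28 with Kdr alone, with a correlation of 0.23 over 49 cells. The highest correlation of any pair was 0.52, for Cdh5 and Flt1 in SU. These values describe cells of the same tissue sample that differ in depth.

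Some other endothelial genes were read mostly in cells with several members, and others were not. A list of 17 endothelial markers had 3 with a paired ID, Cd34, Ecscr and Clec14a, all from transcripts the study had called, so their direction is not independent evidence. Clec14a, a C-type lectin of endothelial cells, had at least 10 reads in 7 of the 8 SU cells with 3 or 4 other members (median 90.5 reads, highest 486), in 0 of 18 with 1 or 2, and in 1 of 40 with none. In VMP it had 505 reads in cell 13, which held all members, and at most 7 in the 10 cells with 1 or 2 others. Lmo2, a partner of the factor Tal1 in blood and endothelial lineages, reached 10 reads in 6 of the 8 SU cells, in 4 of the 18 and in 4 of the 40. Lyve1, a hyaluronan receptor of lymphatic endothelium and some macrophages, reached 10 reads in 5 of the 8, in 3 of the 18 and in 0 of the 40, and in VMP in 0 of 38 cells without endothelial reads. Tal1 reached 10 reads in 3 of the 8, with a highest value of 740 reads, in 0 of the 18 and in 1 of the 40. Cd34, a sialomucin of endothelial and stromal cells, reached 10 reads in 3 of the 8, 1 of the 18 and 3 of the 40. Ets1 did so in 4, 4 and 6, and Ecscr in 1, 0 and 0. Pdpn reached 10 reads in 3 of the 8, 8 of the 18 and 7 of the 40. In VMP, Lyve1 and Ecscr were at 0 in cell 13, and reached 10 reads in 3 and 1 of the 10 cells with 1 or 2 other members.

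In the VMP cells that held Kdr without the other 4, most of these markers were read in few cells, and Lmo2 in more. Of the 24 such cells, 0 had 10 reads of Ecscr, Tal1 or Lyve1, and 1 had them of Clec14a, 1 of Ets1 and 1 of Pdpn. Cd34 reached 10 reads in 3 and Lmo2 in 7. In the 14 VMP cells with 1 to 9 Kdr reads the counts were 0, 0 and 0 for the first 3. They were 1 for Clec14a, 2 for Ets1, 1 for Pdpn, 1 for Cd34 and 3 for Lmo2. The counts are too small to tell a difference between cells above and below 10 Kdr reads from none.

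In the bulk libraries, the 3 endothelial markers were past the fold limit toward VMP in Tag-seq, where 7.36% of all transcripts were, with log2 ratios of 1.98 for Cd34, 1.70 for Ecscr and 1.54 for Clec14a. None passed it in RNA-seq, with 0.55, -0.15 and 0.82. Of 3 matched endothelial transcription factors (of 12), none passed in Tag-seq and 2 passed toward SU in RNA-seq, where 15% of all transcripts did. These were Ets1, a founding ETS factor, at -2.83 (108 counts in VMP and 1063 in SU), and Tal1, with 0 and 92 counts, for which the 95% interval of the log2 ratio lay below -4.15. The lymphatic genes parted, since Lyve1 had an RNA-seq log2 ratio of 4.003 (168 and 14 counts) and Pdpn, podoplanin, one of -2.56 (53 and 435 counts). No fixed gene of the angiopoietin pathway had a paired ID. Of the catenins that tie cadherins to actin, Ctnna1 and Jup passed the limit toward SU in Tag-seq (-1.66 and -2.80), where 13.8% of all transcripts did. Neither passed it in RNA-seq (-0.12 and 0.87). Genes of all these lists had a paired ID only where the study had called them. The share of all transcripts is thus not a like background for them, and nothing is read from their counts past the limit.

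The VEGF ligand and co-receptor with a paired ID showed a pattern opposite to that of Kdr in dissociated cells. Nrp1, neuropilin 1, binds VEGF beside VEGFR2. It had 378 counts in VMP and 1767 in SU in RNA-seq, a log2 ratio of -1.76 (-1.92 to -1.60), and 236 and 156 counts in Tag-seq, a log2 ratio of 0.55 (0.25 to 0.85). Pgf, placental growth factor, a ligand of VEGFR1, had 146 and 894 counts in RNA-seq, a log2 ratio of -2.15 (-2.41 to -1.90), and 0.66 (0.42 to 0.91) in Tag-seq. Both are transcripts the study had called. Among cells without endothelial reads, Nrp1 reached 10 reads in 1 of 38 VMP cells (2.63%) and in 19 of 40 SU cells (47.5%), and Pgf in 3 and 15. Of the 24 VMP cells with Kdr, 1 had Nrp1 and 3 had Pgf. Of the 5 SU cells with Kdr, 2 had Nrp1 and 2 had Pgf. In the 8 SU cells with 3 or 4 other members, Nrp1 reached 10 reads in 7, with a median of 163.5 reads, and in the single VMP cell of that kind it had 0.

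The VMP cells with at least 10 Kdr reads and no other member held many, but not all, of 16 genes that the study named for VMP. Of these 24 cells, Ptn, a secreted growth factor, reached 10 reads in 24, Meis2, a homeobox factor, in 23, Slc26a7, an anion transporter, in 22, Igf2, a growth factor, in 21, Fgf10, the growth factor for epithelial budding, in 19, and Ebf3, a helix-loop-helix factor, in 17. Dlk1 was held by 14, Rspo2 by 13, Nell2 and Sfrp1 by 10 each, Gfra3 and Robo1 by 7 each, Rspo3 by 5, Scube1 and Nmur2 by 3 each, and Scara5 by 0. The 14 VMP cells with 1 to 9 Kdr reads held the same leading genes, with Ptn and Meis2 in 14, Igf2 in 13, Fgf10 in 12, Ebf3 in 11 and Slc26a7 in 9. Pdgfra, a receptor of mesenchymal cells, was held by 19 of the 24 and 9 of the 14. In the 40 SU cells without endothelial reads, Ptn was held by 32, Meis2 by 29, Igf2 by 25, Ebf3 by 10, Fgf10 by 6 and Slc26a7 by 4. Of 6 matched genes named for SU, Anxa1 was held by 3 of 38 VMP and 39 of 40 SU cells without endothelial reads, Wnt5a by 6 and 36, Enpp2 by 4 and 32, Bmp4 by 8 and 20, and Unc5b by 1 and 7. Aldh1a3 went the other way, with 8 and 5. All these genes were named by the study from these tissues, so their direction between VMP and SU is not independent evidence.

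**Figure D3:**
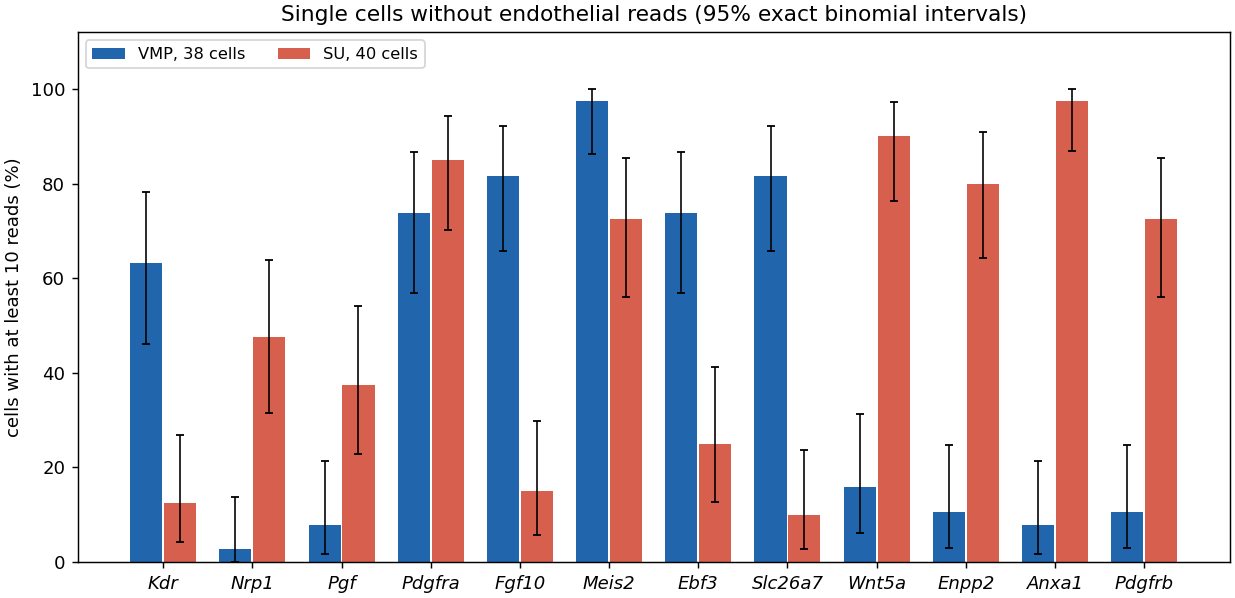
Share of cells with at least 10 reads (vertical axis, percent) of Kdr and 11 other genes, among 38 VMP and 40 SU cells without endothelial reads. Lines are exact 95% binomial intervals over cells, which leave out any spread between animals or pools. Kdr, at 63.2% in VMP and 12.5% in SU, lies with Fgf10, Ebf3 and Slc26a7, while Nrp1 and Pgf lie with the SU genes Wnt5a, Enpp2 and Anxa1. Meis2, also a VMP gene, was held by most cells of both tissues (97.4% and 72.5%), as was Pdgfra (73.7% and 85%).

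Across the 38 VMP cells, Kdr followed no VMP gene closely. The Spearman correlations of Kdr with 16 VMP genes named by the study ran from -0.17 for Fgf10 to 0.21 for Robo1, with a median of 0.04. With 7 fibroblast markers they ran from -0.34 for Lum to 0.24 for Pdgfra. Of 4464 genes with reads in at least 20 of the cells, 4 had a correlation over 0.5. Among the 5 highest, only Hnrnpa1, an RNA-binding protein, had a paired symbol, at 0.54, and reads of its many near-identical copies may be shared with it. Its correlation with Kdr over the 40 SU cells was -0.27. In SU the highest of 5701 genes reached 0.48, and none of the 5 highest had a paired symbol. The correlation of Kdr with depth was 0.01 in VMP and -0.01 in SU. With 38 or 40 cells and far more genes than cells, these values are a description only.

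The 5 SU cells with Kdr and no other member held genes named for SU and some named for VMP. Each had under 10 reads of Fgf10 (1 to 9 reads) and of Slc26a7 (0 to 7 reads). Anxa1, an SU gene, had 55 to 1948 reads in them, and Wnt5a, a Wnt ligand of SU, 49 to 937 reads. Enpp2, another SU gene, had 149 to 2208 reads in 4 of them and 1 read in SU cell 37. All 5 had Pdgfra (35 to 1022 reads) and Lum, lumican (839 to 9017 reads). Ptn, a VMP gene, was high in 4 of the 5 at 219 to 1250 reads, with 1 read in SU cell 5, which had the fewest counts of any cell. Igf2, also a VMP gene, had 52 to 770 reads in the same 4 and 2 reads in SU cell 5. Meis2 reached 10 reads in 3 of the 5, at 26, 68 and 375 reads. These VMP genes were not particular to the 5 cells. Of the 35 SU cells with under 10 reads of all 5 members, 28 held Ptn, 21 held Igf2 and 26 held Meis2. The Kdr level of the 5 SU cells with Kdr was 46.6 to 215 CPM. They were picked for at least 10 Kdr reads, so the like set is the 24 VMP cells with that many. The median was 56 Kdr reads in the 5 SU cells and 36.5 in the 24 VMP cells, with highest values of 134 and 1414.

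The cells with endothelial reads also held reads of fibroblast genes. All 11 VMP and all 26 SU cells had at least 10 reads of Col1a1, Col3a1 and Dcn, which encode collagen chains and a proteoglycan made by fibroblasts. In VMP cell 13, with all members, these were at 2192, 672 and 2970 CPM. In the 4 SU cells with all members, Col1a1 was at 1835 to 6150 CPM, and the summed level of 7 of 12 fibroblast markers with a paired ID was 5003 to 22083 CPM. This summed level was 4093 to 15365 CPM in VMP cells with endothelial reads and 4434 to 26364 without. In SU it was 5003 to 61584 CPM with and 10485 to 60259 CPM without. SU cells 63, 66 and 43, which had all members, were at 5003, 7825 and 7865 CPM, below every SU cell without endothelial reads. Their Col1a1, at 1835, 2267 and 2085 CPM, was also below the lowest value of that class, 2743 CPM. SU cell 24, with all members too, lay within the range of that class at 22083 CPM. For this reason the classes are called by their reads and not by a cell type.

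Markers of other cell types were read in the same cells. Of 9 epithelial markers 8 had a paired ID, and their summed level was 0 at the median in all 4 classes, with a highest value of 1.67 CPM in VMP and 133 CPM in SU cells with endothelial reads. Epcam, Cdh1, Krt8, Krt18 and Cldn7 were under 10 reads in every cell, while Krt5 (55 reads), Krt15 (149 reads) and Cldn4 (102 reads) each reached 10 reads in 1 SU cell. The highest epithelial sums were in SU cell 43, at 133 CPM, the SU cell with the most Kdr, and in SU cell 45, at 103 CPM, the SU cell with the most Kdr among those without the other members. SU cell 68, with 0 Kdr reads, had 67.7 CPM. Of 8 pericyte markers 4 were matched, at a summed 2.29 to 118 CPM in VMP and 10.0 to 6259 CPM in SU cells with endothelial reads, against 0 to 3757 and 0 to 3324 CPM without. Pdgfrb, a receptor of pericytes and other stroma, reached 10 reads in 0 of 11 and 18 of 26 cells with, and in 4 of 38 and 29 of 40 cells without endothelial reads. Of 7 leukocyte markers 2 were matched, with Laptm5 under 10 reads in every cell and a summed level of up to 81.8 CPM in VMP and 846 CPM in SU cells with endothelial reads. Matched markers of smooth muscle (2 of 8) summed to at most 858 and 299 CPM in these cells, those of skeletal muscle (4 of 5) to 28.9 and 798 CPM, and those of erythroid cells (2 of 5) to 1.67 and 5.42 CPM. The matched mesothelial marker (1 of 4) was at 0.833 CPM at most in these cells, the Schwann and neural marker (1 of 6) at 0, and no cycling gene had a paired ID. In VMP and SU cells without endothelial reads, smooth muscle sums reached 1048 and 233 CPM and skeletal muscle sums 95.5 and 549 CPM. Erythroid sums reached 3.14 and 226 CPM there, and leukocyte sums 2.71 and 326 CPM. Doublets were not removed, and the part of doublets or other cell types in these reads was not tested.

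**Figure D4:**
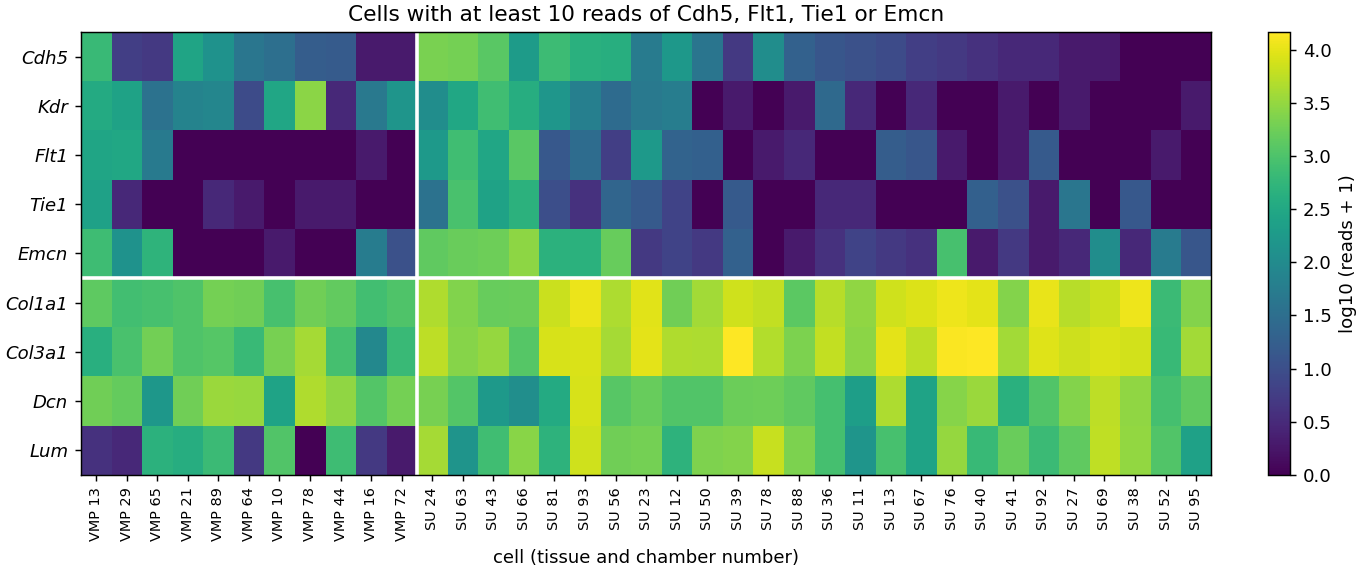
Reads of the 5 members and of 4 fibroblast genes (rows) in the 11 VMP and 26 SU cells with endothelial reads (columns, by tissue and chamber number), coloured by log10 of reads + 1. Few cells hold several members, VMP cell 13 and SU cells 24, 63, 43 and 66 all 5, while Col1a1, Col3a1 and Dcn are read in every column.

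Genes higher in the cells with endothelial reads were named by the ratio of their summed level to that in the other cells. Fewer than 3 counts in the other cells were taken as 3 in this ratio. Only genes with a mean of at least 100 reads per cell in the cells with endothelial reads were ranked. Genes higher in the other cells were not looked for. In SU, 3 of the 10 highest were members, which the rule itself puts there. Of the other 7 only Gbp2, an interferon-induced GTPase, had a paired symbol. It was at 157 CPM with and 0.99 CPM without endothelial reads, had 10 reads in 7 of 26 cells, and 57.99% of its reads came from SU cell 63. In VMP, Msx2, a homeobox factor, was at 155 and 0.04 CPM, held by 3 of 11 cells, with 57.1% of its reads in 1 cell. Esco2, a cohesin acetyltransferase of dividing cells, was at 292 and 0.40 CPM, held by 2 of 11 cells, with 71.3% in 1 cell. LOC103691556 was at 183 and 0.09 CPM, and 99.9% of its reads came from VMP cell 78, the cell with the most Kdr. Each of these levels thus rested on 1 to 7 cells.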

How the data were processed

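VMP and SU of newborn female rats were measured in 119 samples, with 1 Tag-seq and 1 RNA-seq library per tissue and 115 single cells. The authors deposited read counts per Ensembl gene without normalization, made for Tag-seq with Bowtie2 on Rnor_6.0 and for single cells with Trimmomatic 0.33, TopHat and Picard 1.128. How the bulk RNA-seq reads were aligned is not given apart, and the number of cells behind each RNA-seq pool is stated in more than 1 way. The labels hold 66 SU cells, more than the paper states were sequenced or passed its quality control. All of them were used here. Single cells held 199849 to 1488320 gene counts. The 95 spike-in rows were left out of totals.

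Groups were the tissue and the assay that the labels give. The members, marker lists and classes were chosen with earlier results of these data known. Named were the 5 members, list genes with an ID paired in the study's tables (2995 IDs), the 5 genes with the highest correlation with Kdr per tissue, and the 10 with the largest ratio between cell classes. Ratios used TMM scaling in edgeR 4.0.16 (R 4.3.3) and a pseudocount of 0.5 counts, computed with pandas 2.3.3, numpy 2.4.6 and scipy 1.17.1 under Python 3.11.15 and drawn with matplotlib 3.10.9. Intervals are exact (Clopper-Pearson) at 95%. The q of NOISeq was not used. The ratio script was tested on simulated data.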

Additional observations from a re-analysis of the deposited data

Results flagged for a closer look

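The direction of 4 of the 5 members was not the same in all assays, and this difference between assays was not tested, since bulk assays had 1 library per tissue and the labels name no separate animals or pools for the cells. As VMP over SU log2 ratios in Tag-seq, RNA-seq and summed single cells, Cdh5 gave 1.58, 0.54 and -2.09. Flt1 gave 0.97, -1.81 and -1.53. Tie1 gave 1.22, 0.32 and -2.29. Emcn gave 1.53, 0.86 and -2.37. The assays also differed in dissociation, chemistry, the epithelium held in SU and the cells captured, which cannot be told apart here. In the single cells the turn rests on few cells, since SU had 8 cells with at least 3 of these 4 genes and VMP had 1.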

How the results depend on the processing

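No bulk ratio of a member, and no Kdr ratio over single cells, turned its direction under the alternatives tried. Scaling by total count moved 4 of the 5 RNA-seq ratios beyond their counting intervals on the log2 scale, Kdr to 3.08, Cdh5 to 0.75, Tie1 to 0.53 and Emcn to 1.06, and DESeq2 (1.42.0) size factors or a pseudocount of 5 counts kept every bulk ratio within its counting interval. The number of members past the fold limit was 3 in Tag-seq and 2 in RNA-seq under each setting, except for 4 in Tag-seq at a limit of 1.

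The Kdr ratio over cells without endothelial reads, 3.68 as reported, was 3.27 when scaled to spike-in counts and 3.87 without cells past 3 MADs of their tissue, which left 36 VMP and 38 SU cells of this class. It was 4.55 when cells with under 50 reads of each other member were taken, and 2.85 when only cells with 0 reads of them were (6 VMP and 2 SU cells). Without the VMP cell with the most Kdr reads, a choice made after seeing the data, it was 3.09. The share of these cells that hold Kdr depends on the read limit. It was 100% in VMP and 35% in SU at 1 read, 23.7% and 7.5% at 50 reads, and 43.9% and 9.80% after thinning. Among cells with 0 reads of the other members it was 50% in both tissues (3 of 6 VMP and 1 of 2 SU cells), so no difference was seen at that setting, which leaves few cells. VMP cells with endothelial reads numbered 43 at a limit of 1 read, 6 at 50 reads and 3 where 2 genes had to reach 10 reads. SU cells numbered 64, 13 and 11, and 15 after thinning. These counts follow from the limits themselves.

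No paired analysis was possible because the numbers shared by VMP and SU cells are chamber positions on a chip, and no result came from a test. With 1 bulk library per tissue and assay, the bulk values have no version with a library left out. Depth limits Flt1 in Tag-seq, with 41 and 20 counts.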
